A study of Mus musculus with 16 samples.

Results

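Matrix metalloproteinases (MMPs) and tissue inhibitors of metalloproteinases (TIMPs) were followed across all conditions in mouse left ventricle: the collagenase Mmp8, the gelatinases Mmp2 and Mmp9, the stromelysin Mmp3, the macrophage elastase Mmp12, the membrane-type enzyme Mmp14, and the 4 inhibitors Timp1, Timp2, Timp3 and Timp4. These 10 genes were taken by symbol from the 55492 genes of the deposited expression table, and all 10 were found and passed the filter on low values (a mean of at least 10 normalized counts over the libraries). RNA sequencing of rRNA-depleted total RNA was carried out on the left ventricle of 16 male C57BL/6 mice aged 8 to 12 weeks, 1 library per mouse. PKM2-/- mice carry a germline deletion of the Pkm exon that is specific to the M2 isoform of pyruvate kinase in every tissue. A CMV-driven Cre removed the exon in the germline, and the line studied no longer carries that transgene. PKM2fl/fl mice, whose floxed alleles are intact, were the controls. Unoperated (baseline) hearts gave 2 libraries per genotype. Hearts taken 3 days after permanent ligation of the left anterior descending artery (myocardial infarction, MI) or after sham surgery gave 3 per genotype and operation. The whole ventricle was pulverized, so infarct, border and remote muscle were not separated, and the deletion is present in all the cell types sampled.

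MMPs are zinc-dependent endopeptidases that are made as inactive proenzymes and, once activated, cleave collagens, elastin, proteoglycans and many non-matrix proteins. TIMPs bind the active site of MMPs and inhibit them, and each TIMP inhibits several MMPs. In the infarcted heart, MMPs from leukocytes, fibroblasts and muscle cells take part in clearing the damaged matrix before a collagen scar forms. A transcript level measures neither activation of the proenzyme nor the protein, which for Mmp8 and Mmp9 is stored in neutrophil granules made before the cells leave the marrow.

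Sequencing depth ranged from 20623769 to 71855101 reads on genes per library. The values are read counts divided by the DESeq2 size factor of the library and are called normalized counts here. Pkm itself had 7779 to 16113 normalized counts over the 16 libraries, and since the table sums all isoforms of a gene it does not check the deletion. Its summed level was higher in PKM2-/- than in PKM2fl/fl libraries at baseline (11981 to 12984 against 9108 to 9602). The same held after sham surgery (11710 to 14242 against 7779 to 9444). After MI the Pkm ranges overlapped (10120 to 16113 against 9576 to 12076). Reads on rRNA-related loci made up 15.8 to 46.0% of the total. At baseline and after sham surgery every PKM2-/- library had a higher share than every PKM2fl/fl library (39.6 to 43.8% against 17.2 to 22.1%, and 28.5 to 46.0% against 15.8 to 27.8%), and after MI the ranges overlapped. Their part in the genotype comparisons was not tested. Summed levels of 10 cardiomyocyte markers, such as Myh6, were 1046180 normalized counts or more in every baseline and sham library and between 215060 and 499541 in the MI libraries. PKM2fl/fl MI library 3 had 215060, against 499541 and 487091 in libraries 1 and 2 of that group and 227191 to 310388 in PKM2-/- MI libraries. In such bulk tissue fewer cells of a type and less RNA per cell cannot be told apart.

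Mmp3, Mmp8 and Mmp12 lie on the forward strand within a stretch of 427 kb on chromosome 9 that holds 10 Mmp genes. The other 7 are Mmp1a, Mmp1b, Mmp7, Mmp10, Mmp13, Mmp20 and Mmp27, and of these Mmp13 and Mmp27 passed the filter on low values, whereas each of the other 5 had at most 6 reads in any library. On GRCm38 the protein-coding genes Mmp12, Mmp3 and Mmp8 span chr9:7344397-7360461, chr9:7445822-7455975 and chr9:7558429-7568486. The other MMP members are Mmp2 at chr8:92827290-92853421, Mmp9 at chr2:164940326-164955850 and Mmp14 at chr14:54431598-54442456. Timp1 lies at chrX:20870166-20874737, Timp3 at chr10:86300412-86349505, and Timp2 (chr11:118301061-118355411) and Timp4 (chr6:115244444-115252205) are on the reverse strand. RefSeq start sites on GRCm38.p6, the assembly of the mm10 alignment, were listed for 8 of the 10 members, with 9 starts in all. The 120 bases before the start are shown for the members that were higher after MI in at least 1 genotype and have an entry, and for Timp4, which was lower. Capitals mark matches to the AP-1 motif TGANTCA, the PEA3 (ETS) motif AGGAAG on either strand, and the TATA box TATAAA on the strand of the gene.
Mmp3 (chr9:7445702-7445821, forward strand): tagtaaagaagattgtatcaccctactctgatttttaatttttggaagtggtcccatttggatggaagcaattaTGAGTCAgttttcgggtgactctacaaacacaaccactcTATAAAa
Mmp12, first listed start (chr9:7344277-7344396, forward strand): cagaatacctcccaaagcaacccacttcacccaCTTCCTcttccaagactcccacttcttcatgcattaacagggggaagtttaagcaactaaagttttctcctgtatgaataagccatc
Mmp12, second listed start (chr9:7347254-7347373, forward strand): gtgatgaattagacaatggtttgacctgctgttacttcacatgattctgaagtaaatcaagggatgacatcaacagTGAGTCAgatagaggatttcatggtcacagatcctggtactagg
Mmp8 (chr9:7558309-7558428, forward strand): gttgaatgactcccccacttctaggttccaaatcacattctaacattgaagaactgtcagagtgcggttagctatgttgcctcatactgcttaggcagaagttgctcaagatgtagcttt
Mmp14 (chr14:54431478-54431597, forward strand): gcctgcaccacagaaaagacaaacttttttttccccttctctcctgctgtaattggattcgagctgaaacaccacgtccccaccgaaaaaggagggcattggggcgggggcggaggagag
Timp1 (chrX:20870046-20870165, forward strand): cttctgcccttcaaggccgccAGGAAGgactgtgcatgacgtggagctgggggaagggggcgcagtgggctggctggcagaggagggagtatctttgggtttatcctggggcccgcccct
Timp4 (chr6:115252206-115252325, reverse strand): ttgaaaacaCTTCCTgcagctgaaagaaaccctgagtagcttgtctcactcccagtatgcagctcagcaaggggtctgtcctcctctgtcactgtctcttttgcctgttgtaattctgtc
The AP-1 motif was found in the 250 bases before 2 of the 9 starts, those of Mmp3 and the second start of Mmp12, 46 and 44 bases upstream, against 6.75% of 32851 mouse promoter windows of that length. PEA3 letters were found for Mmp3, Mmp8, Mmp12 (first start only), Mmp14, Timp1, Timp3 and Timp4, with 29.5% of all windows holding them. TATAAA, which 7.59% of all windows hold, was found for Mmp3. These matches are letters in a window and were not read as binding sites.

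Infarction was first compared with sham surgery in PKM2fl/fl hearts. Timp1, Mmp12, Mmp14, Mmp9 and Mmp8 were higher after MI, Timp4 was lower, and Mmp2 and Timp2 differed little. A gene was called when its adjusted p in limma's moderated test over 20576 genes was under 0.05 and its change at least 2-fold. By this rule 5 members were called higher and 1 lower, where 12.4% of all tested genes were called higher and 11.1% lower (23.5% in either direction). In 5 members (Mmp3, Mmp8, Mmp12, Mmp14 and Timp1) all MI values were above all sham values and in 2 (Timp3 and Timp4) below, against 30.0% and 29.0% of all tested genes. The median log2 fold change was 1.54 over the 10 members and -0.00254 over all tested genes. The members were chosen with earlier results of these data known, so these medians are a description and were not tested.

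**Figure D1:**
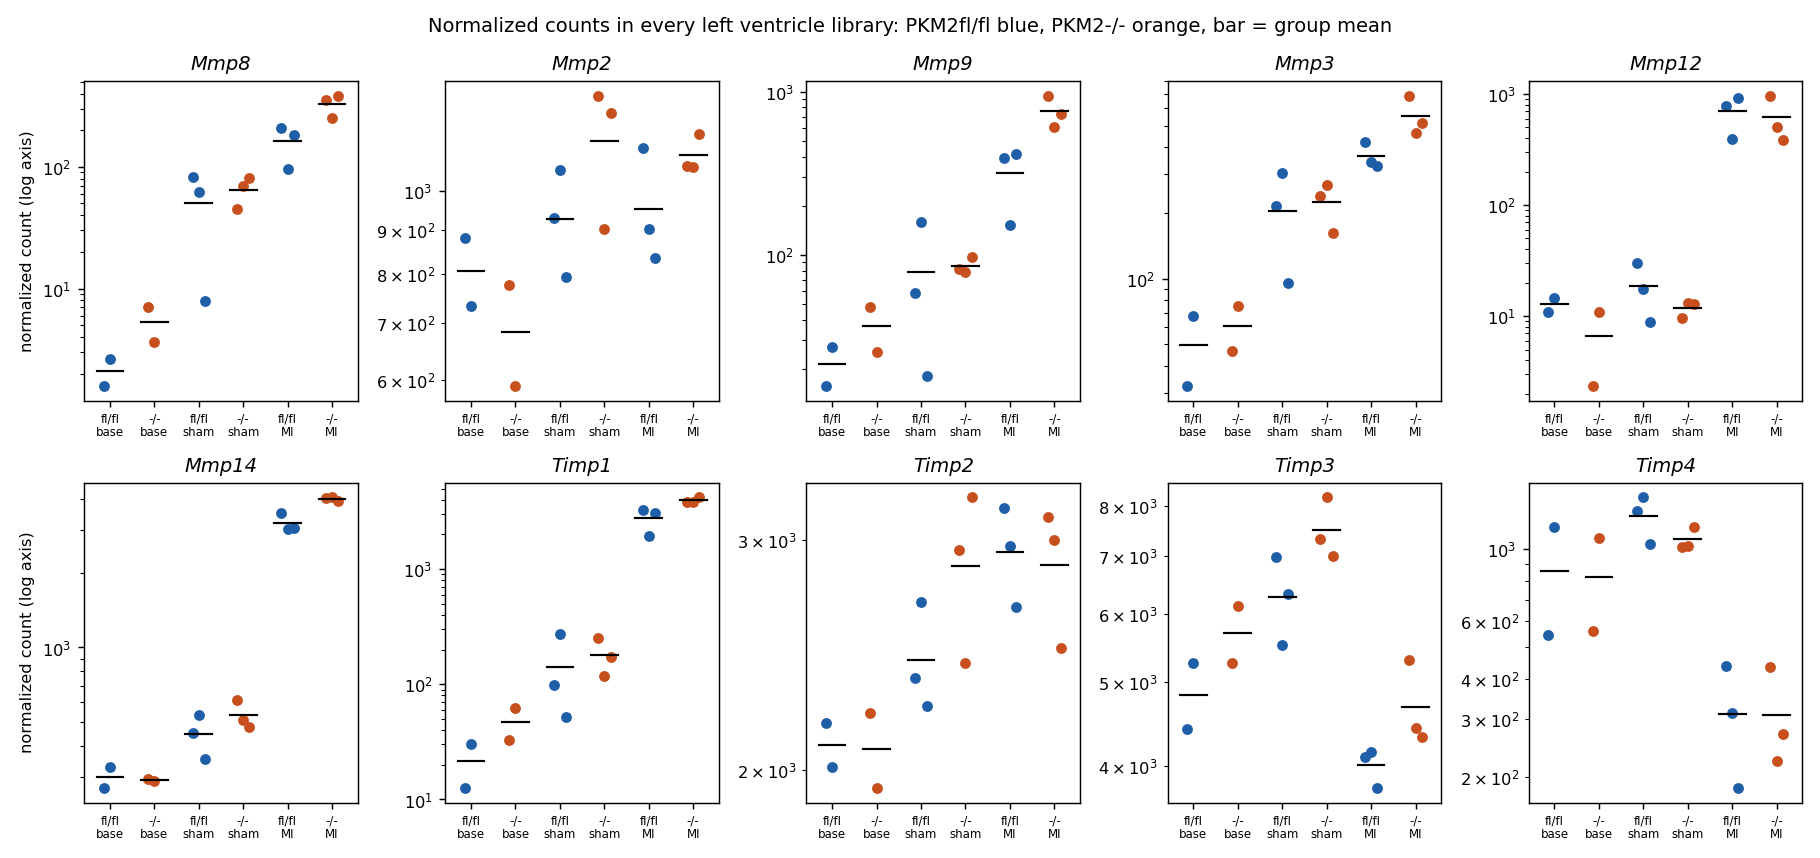
Each point is the normalized count (log axis) of 1 member in 1 library, with PKM2fl/fl in blue, PKM2-/- in orange and a bar at the group mean of 2 baseline, 3 sham or 3 MI libraries. The MI libraries of Mmp12, Mmp14 and Timp1 lie above all the others in both genotypes, and those of Timp4 lie below all the others.

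Mmp14, which activates proMMP2 at the cell surface, varied little within each group. Its normalized counts were 453, 532 and 355 in the PKM2fl/fl sham libraries and 3511, 3019 and 3037 in the MI libraries. No MI library came near a sham library. The log2 fold change was 2.85 (SE 0.137, adjusted p 6.65e-09), a 7.21-fold rise and the fifth smallest p of all tested genes.

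Mmp12, an elastase made mainly by macrophages, had few counts without MI. Sham libraries had 30.0, 17.5 and 8.82 normalized counts, and MI libraries 774, 396 and 917. All 3 MI libraries exceeded every sham library by more than 10 times. The rise was 36.9-fold (log2 5.21, SE 0.50, adjusted p 1.31e-06).

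The gelatinase Mmp9 and the collagenase Mmp8 varied widely among PKM2fl/fl sham hearts. Mmp9 stood at 58.8, 160 and 18.1 normalized counts in the sham libraries and at 393, 153 and 413 after MI. Sham library 2 was above MI library 2, so these groups overlapped. The log2 fold change of Mmp9 was 2.36 (SE 0.568, adjusted p 0.00279). For Mmp8 the sham values were 82.3, 62.6 and 7.84 and the MI values 207, 96.4 and 182. MI values were higher without overlap, though MI library 2 lay only slightly above sham library 1. Mmp8 rose by 2.10 on the log2 scale (SE 0.619, adjusted p 0.0104). Sham library 3 was the lowest for both genes. Without it the change was 2.13-fold instead of 4.30-fold for Mmp8 and 2.99-fold instead of 5.15-fold for Mmp9, and when only the PKM2fl/fl sham and MI libraries were fitted the adjusted p of Mmp8 was 0.0565.

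Mmp3, a stromelysin that cleaves proteoglycans and other proMMPs, had 214, 303 and 95.6 normalized counts after sham surgery and 422, 342 and 327 after MI. The groups did not overlap, as sham library 2 was just under the lowest MI library. The change of 1.96-fold (log2 0.97, SE 0.364, adjusted p 0.0365) fell short of the 2-fold threshold. It was above the threshold without sham library 1 (log2 1.08, adjusted p 0.0486) or sham library 2 (log2 1.33, adjusted p 0.00819), and without sham library 3 it was 0.50 (adjusted p 0.212). The gelatinase Mmp2, the most abundant MMP member in unoperated hearts, showed no such difference, with 931, 1059 and 792 against 1125, 902 and 834 normalized counts and a log2 fold change of 0.04 (95% interval -0.30 to 0.38).

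Among the inhibitors, Timp1 was the one that was higher after MI. Its sham values were 98.7, 274 and 52.0 normalized counts and its MI values 3245, 1928 and 3095. The lowest MI library was well above the highest sham library. This was a 23.7-fold rise (log2 4.57, SE 0.478, adjusted p 2.84e-06), which was 16.2-fold without sham library 3 and 37.0-fold without sham library 2. Timp4, the TIMP known for its high expression in heart muscle, changed in the opposite direction, from 1312, 1442 and 1038 to 437, 313 and 185 normalized counts. Every MI value was under every sham value, with the lowest in MI library 3, and the level fell by 2.09 on the log2 scale (SE 0.338, adjusted p 0.000121). Timp3, which binds to the matrix, was lower in all MI libraries (4095, 4158 and 3773) than in all sham libraries (6983, 5526 and 6322), but by 1.56-fold (log2 -0.64, SE 0.119, adjusted p 0.000388), and was not called. Timp2, which takes part in proMMP2 activation by Mmp14, had 2354, 2690 and 2238 normalized counts in sham and 3175, 2969 and 2665 in MI libraries, with overlap and an adjusted p of 0.0787 (log2 0.28).

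The counts of 3 TIMPs carry a limit, as their loci overlap other genes. Timp1, Timp3 and Timp4 each lie within a synapsin gene on the opposite strand, and in every library the synapsin had more reads than the TIMP. Syn1 had 103 to 275% of the reads of Timp1, Syn3 102 to 105% of those of Timp3, and Syn2 124 to 165% of those of Timp4. Synapsins are vesicle proteins of neurons. Annotated exons share 1734 bases between Timp3 and Syn3 and 1142 between Timp4 and Syn2, but 0 between Timp1 and Syn1 in the annotation used here (GRCm39). The strand setting of the counting is not given in the sources used here, so reads on the shared bases of Timp3 and Timp4 cannot be told apart from those of the synapsin. For Timp1 the shared exon bases do not account for the Syn1 reads, and their source was not tested. Of the other members, Mmp2 shares exon bases with the antisense gene Gm45472 (3 to 57 reads per library), Mmp12 with Mmp1b (0 to 6 reads) and Timp2 with Cep295nl on its own strand (42 to 209 reads).

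The same comparison in PKM2-/- hearts used separate libraries. There, 6 members were called higher (Mmp3, Mmp8, Mmp9, Mmp12, Mmp14 and Timp1) and 1 lower (Timp4), where 14.5% of all tested genes were called higher and 14.3% lower (28.8% in either direction). All MI values were above all sham values in the 6 called higher, and below in Timp3 and Timp4, against 31.7% and 30.6% of all tested genes. The median log2 fold change was 1.84 over the members and 0.01 over all tested genes, again as a description of genes chosen with earlier results known.

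Mmp14 went from 611, 507 and 476 normalized counts in sham to 4027, 4053 and 3907 in MI libraries of PKM2-/- hearts, a log2 fold change of 2.92 (SE 0.137, adjusted p 7.22e-09). Mmp12 had 9.65, 13.1 and 12.9 in sham and 968, 509 and 382 in MI libraries, a 44.9-fold difference (log2 5.49, adjusted p 5.72e-07). Both sets of MI values were far above the sham values, and those of Mmp12 were again the more scattered. Mmp9 had 82.0, 78.4 and 97.1 normalized counts after sham surgery and 946, 608 and 731 after MI. Its log2 fold change was 3.12 (SE 0.568, adjusted p 0.000248), and here the groups were well apart. Mmp8 stood at 45.0, 69.2 and 80.9 in sham and at 357, 252 and 385 in MI libraries, likewise without overlap (log2 2.35, adjusted p 0.00443).

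Mmp3 had 240, 269 and 162 normalized counts in PKM2-/- sham libraries and 687, 465 and 516 in MI libraries, and its log2 fold change of 1.32 (SE 0.364, adjusted p 0.00583) was called. Timp1 was at 254, 118 and 172 and then at 3834, 3849 and 4197 (22.8-fold, log2 4.51, adjusted p 2e-06). Timp4 went from 1018, 1024 and 1173 down to 436, 224 and 270 (log2 -1.84, SE 0.338, adjusted p 0.000267). For all 3 genes, MI and sham values did not overlap. Timp3 was 1.6-fold lower after MI (log2 -0.68, adjusted p 0.000175), under the threshold for a call. Mmp2 and Timp2 had log2 fold changes of -0.04 (95% interval -0.38 to 0.30) and 0.00 (-0.26 to 0.27).

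**Figure D2:**
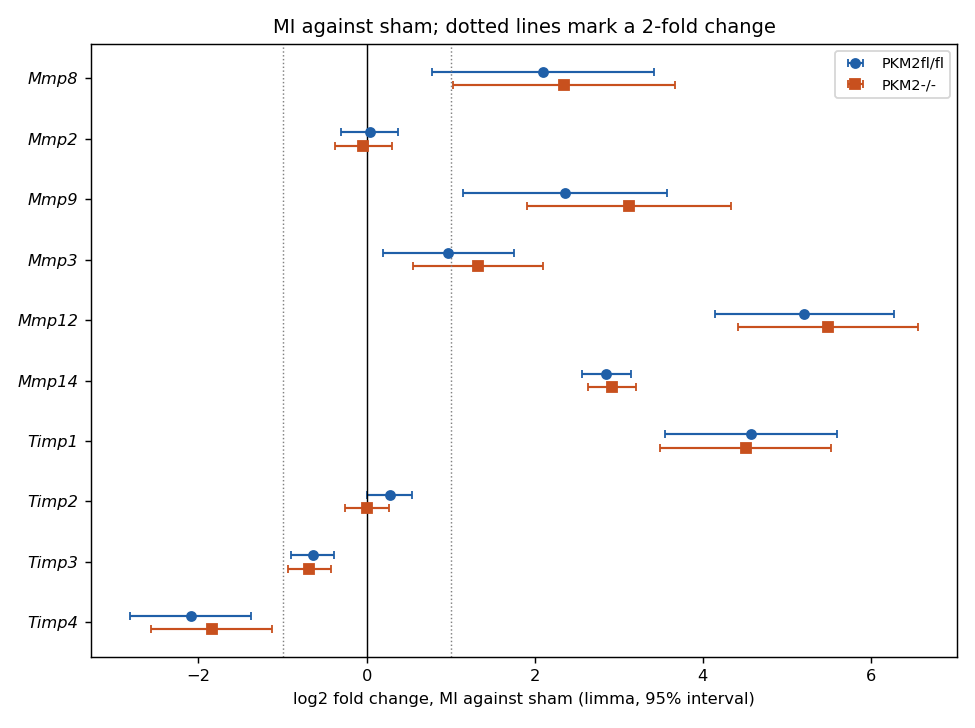
Log2 fold change of each member between MI and sham hearts on the x axis, with limma's 95% interval, in PKM2fl/fl (blue circles) and PKM2-/- (orange squares). The intervals of both genotypes overlap for every member, from Mmp12 at 5.21 and 5.49 down to Timp4 at -2.09 and -1.84.

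Whether the response to MI differed between genotypes was tested by an interaction term. Its value for the members ran from -0.27 for Timp2 to 0.75 for Mmp9 (SE 0.803, 95% interval -0.96 to 2.47, adjusted p 0.828), and no adjusted p of a member was under 0.05. Over all tested genes limma called 0, with 1703 at an unadjusted p under 0.05, while edgeR called 0 and DESeq2 36. Without PKM2fl/fl MI library 3 limma called 227 genes, none of them a member. The intervals for Mmp8 (-1.62 to 2.11), Mmp12 (-1.23 to 1.79) and Timp1 (-1.50 to 1.39) leave room for differences of more than 2-fold in either direction, and those for Mmp14 (-0.34 to 0.48) and Timp3 (-0.40 to 0.32) do not.

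To compare levels between genes, normalized counts were divided by the length of the canonical transcript, and the shares of the sum over each family were taken per library. In unoperated PKM2fl/fl hearts Timp3 made up 58.2 ± 0.994% (SD, n = 2) of the TIMP sum and Timp1 1.27 ± 0.633%. After sham surgery Timp1 made up 6.28 ± 5.03% (n = 3) and after MI 62.8 ± 7.41%, while Timp3 stood at 56.6 ± 7.51% and 18.7 ± 3.90%. Timp1 was thus the most abundant TIMP transcript per length in each MI library and Timp3 in each of the others.

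PKM2-/- hearts had the same leading genes, with Timp1 at 2.55 ± 0.929%, 7.03 ± 2.54% and 70.0 ± 3.29% in baseline, sham and MI libraries. Timp2 fell within 24.0 and 35.7% in all baseline and sham libraries of both genotypes and made up 10.8 to 20.9% after MI. Timp4 made up 0.681 to 1.49% of the sum in the MI libraries.

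Of the summed MMP members, Mmp2 accounted for 64.0 ± 8.13% in PKM2fl/fl baseline, 49.2 ± 7.03% in sham and 15.3 ± 1.63% in MI libraries. Mmp14 accounted for 26.4 ± 3.80%, 26.0 ± 2.13% and 57.1 ± 3.84%. The lead thus passed from Mmp2 to Mmp14 with infarction, and in PKM2-/- hearts the shares of Mmp14 were 28.0 ± 2.31%, 25.7 ± 1.90% and 54.4 ± 4.14%. The ratio of the MMP sum to the TIMP sum was 0.233 ± 0.0259, 0.263 ± 0.0576 and 0.437 ± 0.0265 over baseline, sham and MI libraries in PKM2fl/fl and 0.193 ± 0.0353, 0.271 ± 0.0204 and 0.438 ± 0.0287 in PKM2-/- hearts. These are transcript ratios of the chosen genes, and the reads of Timp1, Timp3 and Timp4 carry the overlap with synapsin genes given above.

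**Figure D3:**
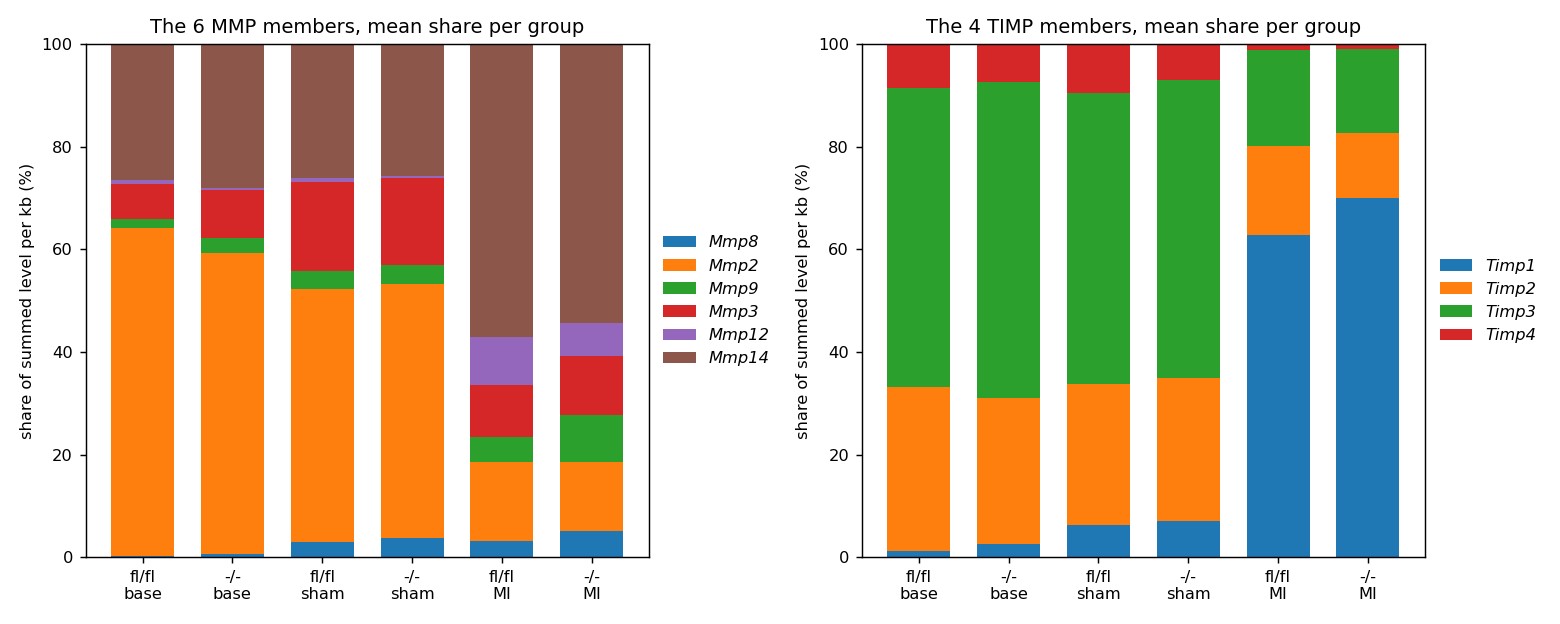
Stacked bars give the mean share (%) of each gene in the summed level per kb of the 6 MMP members (left) and of the 4 TIMPs (right) in the 6 groups. Mmp14 and Timp1 hold the largest share in the MI groups of both genotypes, and Mmp2 and Timp3 in the baseline and sham groups, where Mmp2 had 49.2 to 64.0%.

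Sham surgery itself was compared with baseline, as the mean of both genotypes. Of 4 tested atrial markers 2 were called higher in sham hearts, with a median log2 fold change of 2.14. Whether the tissue taken differed between baseline and sham hearts was not tested. Timp1, Mmp8 and Mmp3 were called higher 3 days after the sham operation and no member was called lower, where 2.06% of all tested genes were called higher and 0.209% lower (2.26% in either direction). Mmp8 had 1.57 and 2.65 normalized counts in the PKM2fl/fl baseline libraries and 6.99 and 3.67 in those of PKM2-/- hearts, from as few as 2 reads. All 6 sham libraries were above these, but PKM2fl/fl sham library 3, with 7.84 from 16 reads, was only slightly above the highest baseline value. The other sham libraries had 45.0 or more. The log2 fold change was 3.48 (SE 0.489, adjusted p 0.000932). Being so close to 0 at baseline, this fold depends on the pseudocount of 1.

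Mmp3 had 32.2 and 67.7 normalized counts in PKM2fl/fl and 46.6 and 75.1 in PKM2-/- baseline libraries, all below the lowest sham library (log2 1.91, SE 0.288, adjusted p 0.00144). Timp1 was at 12.6 and 30.5 in PKM2fl/fl and at 32.6 and 62.3 in PKM2-/- baseline libraries, and the second PKM2-/- library was above PKM2fl/fl sham library 3 (log2 2.18, SE 0.378, adjusted p 0.00318). Mmp14 was 1.63-fold higher after sham surgery (log2 0.71, adjusted p 0.00155), Mmp2 1.38-fold (adjusted p 0.0368) and Timp3 1.31-fold (adjusted p 0.023), below the 2-fold threshold. Mmp9 had 15.7 and 27.2 in PKM2fl/fl and 47.8 and 25.7 in PKM2-/- baseline libraries and did not pass (log2 1.33, adjusted p 0.0979), but it did without PKM2fl/fl sham library 3 (log2 1.72, adjusted p 0.00634).

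Mmp12 had 11.0 and 14.6 normalized counts in PKM2fl/fl and 2.33 and 11.0 in PKM2-/- baseline libraries, overlapping with the sham values (log2 0.70, adjusted p 0.368). Timp2 (log2 0.33, adjusted p 0.0562) and Timp4 (log2 0.55, adjusted p 0.272) were not called. Timp4 was uneven at baseline, with 546 and 1172 in PKM2fl/fl and 562 and 1081 in PKM2-/- libraries. In each genotype, 1 heart thus had a level like that of the sham hearts and the other did not.

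Genotypes were then compared within each condition. At baseline 0 members were called, where 0.00972% of all tested genes were (2 genes, both higher in PKM2-/-), and every adjusted p of a member was 1. For no member was the unadjusted p under 0.05. Timp1 had the smallest (log2 1.16, SE 0.586, 95% interval -0.09 to 2.41, p 0.0665), with 12.6 and 30.5 against 32.6 and 62.3 normalized counts, and Mmp12 followed (log2 -1.11, SE 0.613, 95% interval -2.42 to 0.19, p 0.0892). Mmp8 and Timp1 were higher in both PKM2-/- than in both PKM2fl/fl libraries, a separation found for 17.7% of all tested genes, with 17.2% lower in both. The intervals for Mmp14 (-0.39 to 0.32), Timp2 (-0.34 to 0.31) and Timp3 (-0.07 to 0.55) were the narrowest.

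After sham surgery 0 members were called, and 1 gene of all tested (0.00486%). Timp3 was at 6983, 5526 and 6322 normalized counts in PKM2fl/fl and 7324, 8185 and 6995 in PKM2-/- hearts, higher without overlap as were 8.27% of all tested genes (8.28% were lower), with a log2 difference of 0.26 (SE 0.119, adjusted p 0.489). The other 9 members overlapped. The differences of Mmp3, Mmp8 and Mmp9 were 0.25, 0.83 and 0.60 with all libraries and -0.22, -0.18 and -0.18 without PKM2fl/fl sham library 3.

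After MI 0 members were called, where 0.413% of all tested genes were (32 genes or 0.156% higher and 53 or 0.258% lower in PKM2-/-). 6 members had higher values in all 3 PKM2-/- than in all 3 PKM2fl/fl libraries: Mmp3, Mmp8, Mmp9, Mmp14, Timp1 and Timp3. None was lower in this way, and 10.7% of all tested genes were higher and 8.26% lower without overlap. Mmp9 differed most, with 393, 153 and 413 in PKM2fl/fl and 946, 608 and 731 in PKM2-/- MI libraries, a 2.56-fold difference (log2 1.36, SE 0.568, 95% interval 0.15 to 2.57, adjusted p 0.239). Mmp14 had 3511, 3019 and 3037 against 4027, 4053 and 3907 (log2 0.33, SE 0.137, 95% interval 0.04 to 0.62, adjusted p 0.236). For both genes the unadjusted p was below 0.05 (0.0304 and 0.0297) and the adjusted p was not.

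Mmp8 was at 207, 96.4 and 182 against 357, 252 and 385 normalized counts (log2 1.08, SE 0.619, adjusted p 0.395), and Timp1 at 3245, 1928 and 3095 against 3834, 3849 and 4197 (log2 0.56, SE 0.478, adjusted p 0.593). PKM2fl/fl MI library 2 was the lowest of all MI libraries for Mmp8, Mmp9 and Timp1. Without it the log2 differences were 0.74 for Mmp8, 0.89 for Mmp9 and 0.32 for Timp1. Mmp12 (log2 -0.19), Timp2 (-0.04) and Timp4 (0.02) overlapped between genotypes, as did Mmp2 (0.22).

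Scaling by total reads instead of size factors moved the median of all tested genes by 0.36 in this comparison, and the difference of Mmp9 was then 1.72 (adjusted p 0.0372). The number of genes called between genotypes after MI itself rested on single libraries, being 634 without PKM2fl/fl MI library 3 and between 11 and 86 in each of the other fits that left out 1 library, against 85 with all. It was 11 to 15 without PKM2fl/fl MI library 1 or 2 or PKM2-/- MI library 1 or 3. No member was among those called in any fit that left out 1 library.

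**Figure D4:**
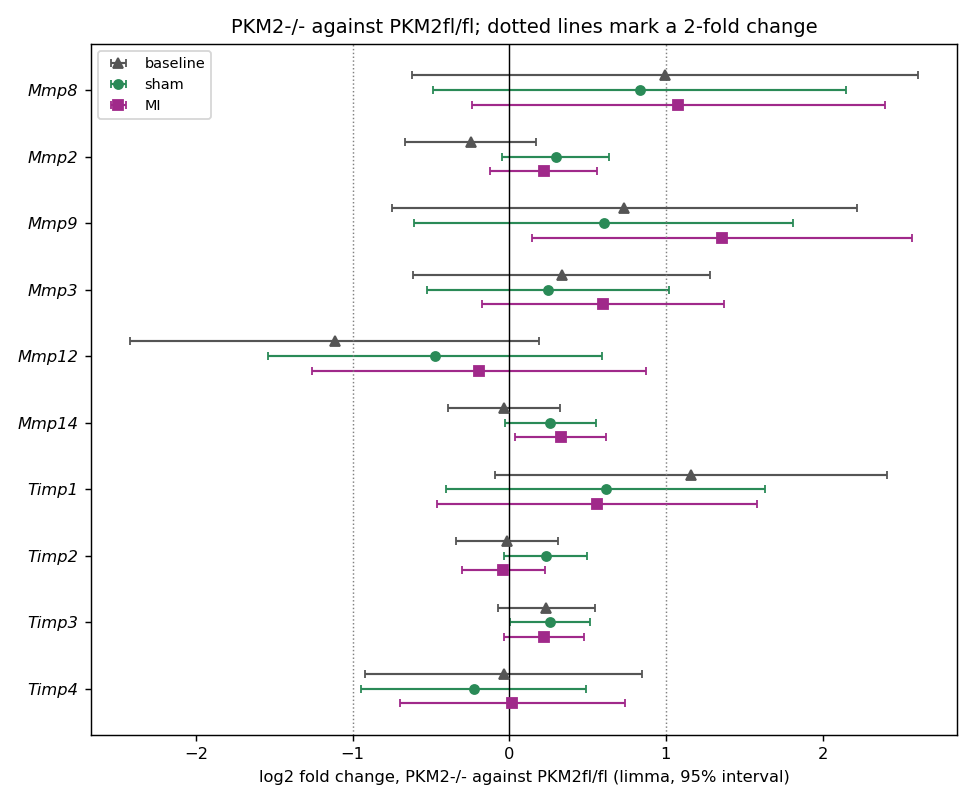
Log2 difference of each member between PKM2-/- and PKM2fl/fl hearts on the x axis, with limma's 95% interval, at baseline (triangles), after sham surgery (circles) and after MI (squares). The intervals of Mmp9 and Mmp14 after MI and of Timp3 after sham surgery lie above 0, and the remaining ones include 0.

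Levels of cell type markers were described beside the results. The summed level of 12 neutrophil markers was 93.4 to 212 normalized counts in the 4 baseline libraries. It was 238 to 1358 in PKM2fl/fl and 1030 to 1282 in PKM2-/- sham libraries, and 1262 to 2181 in PKM2fl/fl and 3578 to 4601 in PKM2-/- MI libraries. Of the 12 markers 6 passed the filter on low values, Elane had no reads in any group except PKM2-/- MI, and Ly6g and Mpo had none at baseline (these 3 markers are named after their values were seen).

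Of those 6, 5 were called higher in sham than in baseline hearts, among them S100a8 (log2 3.42, adjusted p 0.00154). In MI against sham hearts 2 were called higher in each genotype (Csf3r and Cxcr2) and 4 were not called. The lowest log2 fold change there was -0.44 in PKM2fl/fl and 0.31 in PKM2-/- hearts. Between genotypes after MI 0 were called, where S100a9 had a log2 difference of 1.78 (adjusted p 0.151). The lowest sum among the sham libraries was that of PKM2fl/fl sham library 3 (238) and the lowest among the MI libraries that of PKM2fl/fl MI library 2 (1262), the same libraries in which Mmp8 and Mmp9 were lowest. This match was not particular to neutrophil markers. PKM2fl/fl sham library 3 also had the lowest macrophage and fibroblast sums of the sham libraries (6488 and 43734). PKM2fl/fl MI library 2 had the lowest macrophage sum of the MI libraries (25822), but not the lowest fibroblast sum. Summed levels of 12 macrophage markers were 4261 to 5915 in baseline, 6488 to 12256 in sham and 25822 to 44846 in MI libraries, and 11 of 12 were called higher after MI in each genotype. Fibroblast markers summed to 43734 to 70143 in sham and 140215 to 195222 in MI libraries, with 4 of 10 called higher and 1 lower in each genotype. This sum is dominated after MI by the collagens Col3a1, Col1a1 and Col1a2, which are also in the substrate list below. Their PKM2fl/fl means were 10021.5, 6147 and 4841 in sham and 54772, 53701 and 33244 in MI libraries. The median log2 fold change of the 10 markers was 0.66 in PKM2fl/fl and 0.71 in PKM2-/- hearts. The part of these markers in the MMP and TIMP results was not tested.

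**Figure D5:**
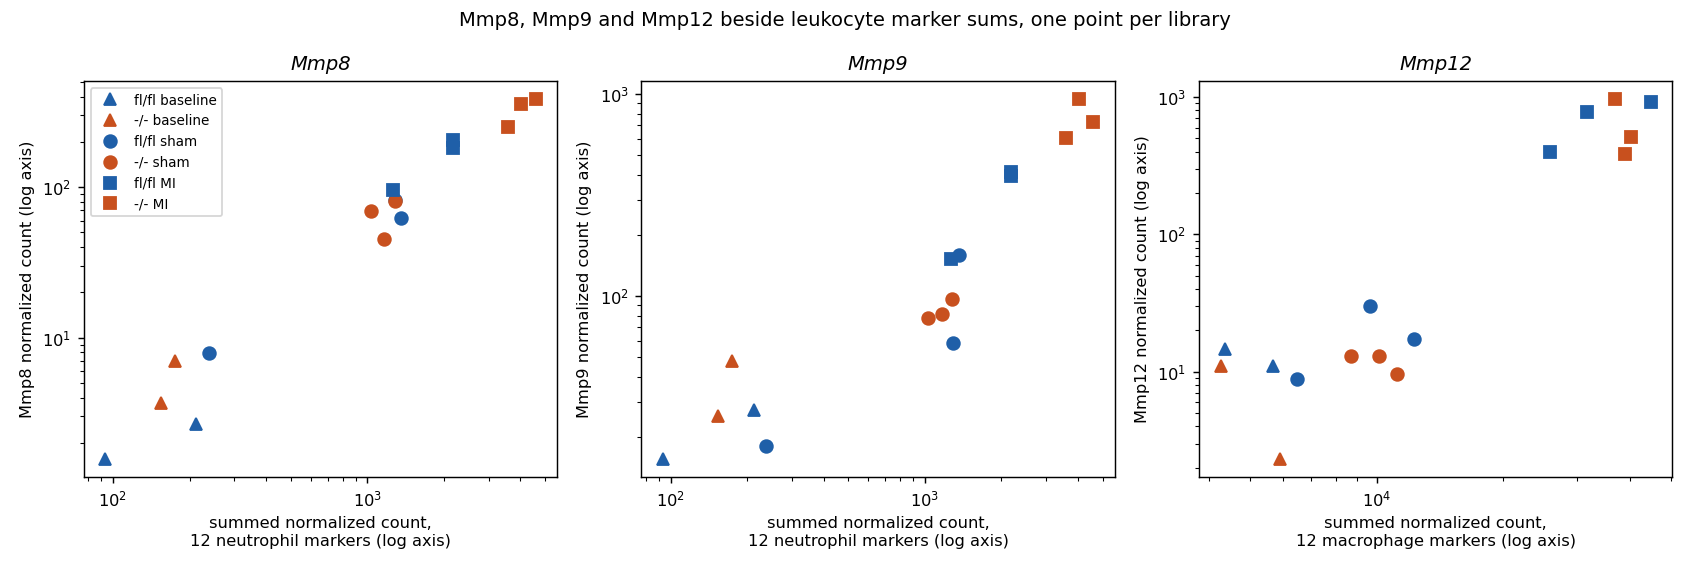
Normalized counts of Mmp8 and Mmp9 against the summed level of 12 neutrophil markers, and of Mmp12 against that of 12 macrophage markers, with 1 point per library, log axes, PKM2fl/fl in blue and PKM2-/- in orange. PKM2fl/fl sham library 3, with a neutrophil sum of 238, lies next to the baseline libraries, and the PKM2-/- MI libraries lie at the upper right for Mmp8 and Mmp9.

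The genes whose log2 levels followed each member most closely over the 16 libraries were ranked by Pearson's r, as a description of points that share the 6 groups. The 3 genes most like Mmp3 were Cxcr2 (r 0.964), a chemokine receptor of neutrophils, Rhou (0.958) and Casp4 (0.958). Mmp8 was most like Casp4 (0.981), the oncostatin M receptor Osmr (0.981) and Cxcr2 (0.979). For Mmp9 they were Acod1 (0.981), Il1rn (0.979) and Xbp1 (0.976). Mmp12 was followed by Itgax (0.987), which encodes the integrin CD11c, Umps (0.98) and Eif4a-ps4 (0.98), and Mmp14 by Actn1 (0.996), Ctsz (0.995) and Anxa2 (0.995).

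Timp1, Timp3 and Timp4 had their overlapping synapsin genes Syn1 (0.997), Syn3 (1) and Syn2 (0.995) among the top 3, which lie at the same locus. Outside these, Timp1 was most like Gm42793 (0.99) and Fxyd5 (0.989), Timp3 like Hand2os1 (0.956) and Rgcc (0.954), and Timp4 like Gm17482 (0.997) and Mrpl58 (0.975). The values were lower for Mmp2, with Igfbp4 (0.92), Folr2 (0.883) and Wdr95 (0.868), and for Timp2, with Tspan31 (0.887), C1qc (0.876) and Camk1 (0.863).

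The pathway around the members was described with 4 lists of genes, whose counts after MI stand beside 12.4% of all tested genes called higher and 11.1% lower in PKM2fl/fl and 14.5% and 14.3% in PKM2-/- hearts. Of 17 other MMPs 11 passed the filter on low values, and in PKM2fl/fl hearts 4 were higher after MI and 1 lower, with a median log2 fold change of 0.41. They include Mmp23 (log2 1.83, SE 0.173, adjusted p 1.13e-06), Mmp19 (1.83, SE 0.242, adjusted p 2.07e-05) and, as the lower one, Mmp11 (-1.54, SE 0.222, adjusted p 4.53e-05). Mmp16 was higher as well (1.07, adjusted p 0.000793), though under 2-fold without sham library 2 (log2 0.99) or MI library 2 (0.96) of that genotype. The fourth was Mmp27 (1.81, adjusted p 0.0036), a neighbour of Mmp8 on chromosome 9, named here after its values were seen. In PKM2-/- hearts 4 were higher and 2 lower, and Mmp16 was not among them (log2 0.71, adjusted p 0.0111).

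Of 20 ADAM and ADAMTS proteases, relatives of the MMPs that shed surface proteins or cleave proteoglycans, all passed the filter, and 9 were higher and 0 lower after MI in each genotype. Adam8 (log2 4.66, adjusted p 1.11e-06), Adamts4 (4.17, adjusted p 1.37e-06), Adam12 (3.59, adjusted p 1.16e-07) and the procollagen N-proteinase Adamts2 (1.64, adjusted p 3.97e-08) had the smallest p in PKM2fl/fl hearts. Among 22 tested of 25 genes for activation and clearance of MMPs, 9 were higher and 2 lower in PKM2fl/fl and 11 and 2 in PKM2-/- hearts. The matricellular protein Thbs1 (log2 3.86, adjusted p 1.21e-06) and the cathepsins Ctss (2.77, adjusted p 2.15e-07) and Ctsb (1.54, adjusted p 2.91e-07) were among those higher in PKM2fl/fl hearts.

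Among 20 matrix genes that encode MMP substrates, 13 were higher and 0 lower after MI in PKM2fl/fl and 12 and 0 in PKM2-/- hearts, with median log2 fold changes of 1.96 and 1.81. Fn1 (4.08, adjusted p 6.88e-08), Postn (3.82, adjusted p 4.4e-08), Col5a1 (2.45, adjusted p 7.55e-08) and Fbn1 (2.09, adjusted p 1.09e-08) had the smallest p. Between genotypes after MI, 0 genes of any of the 4 lists were called. In sham against baseline hearts, 1 other MMP, 2 ADAM or ADAMTS genes, 4 genes of activation and clearance and 5 substrate genes were higher and 0 were lower, where 2.06% of all tested genes were higher and 0.209% lower.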

How the data were processed

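Left ventricular RNA of 16 mice was sequenced, and samples were grouped by genotype and condition from the labels. The deposited values used here are normalized counts, a signal per gene and library: after PRINSEQ trimming, the authors mapped to mm10 (HISAT2), summarized reads over genes (featureCounts), and applied the size factors of DESeq2 to each library. Versions, strand and multi-mapping settings are not given in the sources used here. The deposited table also holds log2 fold changes, score columns (standard error and Wald statistic) and p-values of the authors' own baseline comparison, which were not used. Columns without a sample numbered 0. Reads recovered from the size-factor steps were whole for 100% of values, within 0.01.

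The 20576 genes whose mean normalized count reached 10 were tested on log2(value + 1), 1 being the pseudocount, with limma 3.58.1 (trend) in R 4.3.3, in a model of 6 groups with 10 residual degrees of freedom, and p-values were adjusted by Benjamini-Hochberg. Fold changes on this scale understate changes of low genes. A gene was called at an adjusted p under 0.05 and a change of at least 2-fold. The 95% intervals are those of limma. Each library is a separate mouse, so p-values cover the spread between mice with 2 or 3 per group. Depth was 20623769 to 71855101 reads. Counts were simulated for MI against sham in PKM2fl/fl hearts, with 20600 genes tested, 100 changed 2-fold and 100 changed 4-fold. There limma recovered 74% of the 2-fold and 100% of the 4-fold changes, with 9 false calls. The median log2 fold change of the 2-fold genes was 0.998, just under the 2-fold threshold. The 74% therefore cannot be the share that met both parts of the rule for a call. In the data 23.5% of tested genes were called in this comparison, a larger share than was changed in the simulation. The rates therefore need not hold for the data, and they do not cover the comparisons of genotypes.

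Alternatives were edgeR 4.0.16 and DESeq2 1.42.0 on the recovered reads, TMM and total read scaling, no filter on low values, a pseudocount of 0.1, array weights, a replicate block, fits of only the groups compared, and fits that left out each library. The members and gene lists were chosen with earlier results of these data known. Genes named outside the members were the 3 most correlated with each member and, per list, the 4 tested genes with the smallest p in MI against sham of PKM2fl/fl hearts, of which 1 is not reported here. Of each marker list, the rule allowed the 3 genes with the highest mean, and exceptions are stated where they are named. Transcript lengths are those of Ensembl canonical transcripts, and promoter sequences are from RefSeq on GRCm38.p6.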

Additional observations from a re-analysis of the deposited data

How the results depend on the processing

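Of 2548 recomputed values of members and named genes 2470, and of 175 counts of called genes 118, kept their direction and side of the threshold or stayed within 1.5 times. Member calls between MI and sham kept their direction and side in every fit for PKM2-/- hearts, and for PKM2fl/fl hearts except for Mmp8 when only the compared groups were fitted and Mmp3 without PKM2fl/fl sham library 1 or 2. Mmp9 was called in sham against baseline under total read scaling (1.41), under DESeq2 (1.54) and without PKM2fl/fl sham library 3. Depth limits Mmp8 and Mmp12 at baseline, with as few as 2 reads.

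Genes called between genotypes at baseline numbered 2, against 44 under total read scaling, 9 with a pseudocount of 0.1, 4 with array weights, 46 with only the compared groups, 1 with edgeR and 11 with DESeq2. After sham surgery 1 was called, against 114 under total read scaling, 0 without a filter on low values, 39 with array weights, 9 with only the compared groups and 106 with DESeq2. After MI 85 were called, against 529 with array weights, 6 with only the compared groups and 276 with DESeq2. The interaction gave 0, against 52 under total read scaling, 1 with array weights and 36 with DESeq2. With a replicate block, 1, 0 and 46 genes were called between genotypes at baseline, after sham and after MI. Deviations of 36 same-numbered pairs had a median correlation of -0.0266 (-0.196 to 0.126), against 0.013 for 70 other pairs. No pairing by number was seen, and shared handling of libraries was not tested further. The cause of these changes was not tested.

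Total read scaling moved the median log2 value of all genes by -0.173 and 0.522 in MI against sham of PKM2fl/fl and PKM2-/- hearts, by -0.589, -0.326 and 0.36 between genotypes at baseline, sham and MI, and by 0.676 in the interaction. The share of higher among called genes was then 41.7%, 78.4% and, between genotypes after MI, 83.2%, instead of 52.8%, 50.2% and 37.6%. Signs turned under this scaling for Mmp2 in MI against sham (-0.14 in PKM2fl/fl and 0.47 in PKM2-/-), between genotypes at baseline for Mmp3 (-0.24) and Timp3 (-0.35), after sham for Mmp2 (-0.027), Mmp3 (-0.072), Mmp14 (-0.061), Timp2 (-0.090) and Timp3 (-0.062), after MI for Mmp12 (0.17) and Timp2 (0.33), and in the interaction for Mmp2 (0.61), Timp1 (0.63), Timp2 (0.42) and Timp3 (0.65). With array weights Timp2 in MI against sham of PKM2-/- was -0.0056 and Timp4 -0.39 between genotypes after MI and -0.13 in the interaction. edgeR gave -0.0014 for that Timp2 value and 0.11 for Timp1 in the interaction, and DESeq2 gave 0.16 for the latter and -0.0023 for Timp4 between genotypes after MI.

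Leaving out single libraries gave ranges that cross 0. In MI against sham they were -0.086 to 0.14 for Mmp2 in PKM2fl/fl, and -0.20 to 0.059 for Mmp2 and -0.11 to 0.11 for Timp2 in PKM2-/-. Between genotypes at baseline they were -0.19 to 0.86 (Mmp3), -0.18 to 0.11 (Mmp14), -0.11 to 0.082 (Timp2) and -0.59 to 0.51 (Timp4), after sham -0.22 to 0.61 (Mmp3), -0.18 to 1.44 (Mmp8) and -0.18 to 1.35 (Mmp9), and after MI -0.57 to 0.10 (Mmp12), -0.11 to 0.064 (Timp2) and -0.31 to 0.31 (Timp4). In the interaction they were -0.24 to 0.048 (Mmp2), -0.0078 to 0.82 (Mmp3), -0.36 to 1.26 (Mmp8), -0.12 to 0.71 (Mmp12), -0.068 to 0.22 (Mmp14), -0.70 to 0.49 (Timp1), -0.13 to 0.048 (Timp3) and -0.084 to 0.54 (Timp4). Genes called between genotypes ranged from 0 to 40 at baseline (40 without PKM2-/- baseline library 1), 0 to 50 after sham (50 without PKM2-/- sham library 3) and 11 to 634 after MI, and 0 to 227 for the interaction.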
